A study of Mus musculus with 2 samples.

Results

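Cytosolic heat shock proteins and the TRiC chaperonin were examined as a set of 35 genes, chosen by gene symbol, among the 23183 genes listed for each of 2 RNA-seq libraries of mouse lung cancer cells. All 35 symbols were found. 5 of them are stress-inducible members (*Hspa1a*, *Hspa1b*, *Hspb1*, *Dnajb1* and *Hsph1*), 8 encode the subunits of TRiC (*Tcp1*, *Cct2*, *Cct3*, *Cct4*, *Cct5*, *Cct6a*, *Cct7* and *Cct8*), and 22 are other heat shock proteins, co-chaperones and heat shock factors. The question was how the stress-inducible members compare with the other members and with TRiC when KPR- cells become KPRrestored cells.

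Molecular chaperones bind proteins that are not yet folded, or that have come unfolded, and keep them from aggregating. HSP70 holds short hydrophobic stretches in a cycle of ATP hydrolysis that J-proteins start and nucleotide exchange factors, such as the HSP110 proteins and the BAG proteins, end. HSP90 receives kinases, steroid hormone receptors and other clients late in their folding, helped by its own co-chaperones. TRiC (also called CCT) is a double ring of 8 different subunits that encloses newly made actin, tubulin and other proteins. Heat shock factor HSF1 raises transcription of the inducible chaperones when unfolded proteins accumulate. Cancer cells commonly depend on high chaperone levels.

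KPR- is an immortalized line that came from lung cancer in KPR L/F-TAM(-) mice. Such mice carry *K-Ras* with a LoxP-Stop-LoxP cassette on 1 allele, floxed *p53*, *Runx3* flox/FSF, Tomato* and Flp ERT2, and were infected through the nose with adenovirus in which the CMV promoter drives Cre. Cre switches on oncogenic *K-Ras* and deletes floxed *p53* and floxed *Runx3*, and both groups share these changes. 4-OHT, an active form of tamoxifen, activates Flp ERT2, which removes the Frt-Stop-Frt cassette from the other *Runx3* allele. The KPR- library is labelled RUNX3 -/-, 0 h, and the KPRrestored library RUNX3 -/+, 16 h, and the labels give 1 μM 4-OHT for both. Whether the line is 1 clone is not given in the sources used here. Restoration of *Runx3*, exposure to 4-OHT and hours in culture cannot be told apart with these 2 libraries.

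There was 1 library per condition, so no difference has a replicate check and no p-value was computed. Values are FPKM (fragments scaled to transcript length and to depth), a level per length that can be compared between genes. The depth, estimated from the steps of low FPKM values, was near 21.9 M fragments (KPR-) and 22.5 M fragments (KPRrestored). Differences are log2(FPKM + 0.005) in KPRrestored minus KPR-, which understates changes of very low genes, and a gene was called higher or lower when it was past 0.5. The 95% counting intervals were computed from estimated fragments. They cover counting error only and compare the 2 libraries, not the conditions. The FPKM of *Runx3* (chr4:135120652-135177990) was 0.348 in KPR- and 0.349 in KPRrestored, from about 28 and 29 fragments, so it does not check the labels, and each direction below is that of the library labelled KPRrestored. The epithelial markers *Epcam*, *Cdh1*, *Krt8*, *Krt18* and *Krt19* were all at 91.6 FPKM or more in both libraries. Of the lung lineage markers, *Sftpc*, *Sftpb* and *Scgb1a1* were listed at 0 in both, *Nkx2-1* was at 0.044 and 0.022, and *Foxj1* was at 2.78 in KPR- and 0.656 in KPRrestored. The summed FPKM was 3.08 in KPR- and 6.79 in KPRrestored for 3 immune markers, nearly all of it *Cd68*, with *Cd3e* listed at 0 in both and *Ptprc* at 0 and 0.0089. The sum was 0.060 and 0.170 for 2 endothelial markers, with *Pecam1* at 0.060 and 0.029 and *Cdh5* at 0 and 0.141. For 4 fibroblast markers it was 12.7 and 5.33, mostly *Col1a1* (12.2 and 4.21). *Col1a2* was at 0.046 and 0.018, whereas *Pdgfra* (0.273 and 0.363) and *Dcn* (0.173 and 0.742) were higher in KPRrestored. The part of these cell types in the results was not tested. In bulk RNA, fewer cells of a type and less RNA per cell cannot be told apart.

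Most members differed by less than the threshold between the libraries, and the members that differed went both ways. 6 members were higher in KPRrestored (*Hspa2*, *Hspb1*, *Cryab*, *Dnajb4*, *Dnajb6* and *Bag3*), 2 were lower (*Hsph1* and *Hspa1b*), and 27 were under the threshold. No member was past 1 in either direction. Genes whose FPKM averaged 1 or more over the libraries are called expressed here. Of the 33 expressed members, 5 (15.2%) were higher and 2 (6.06%) were lower. Among all 11231 expressed genes, 12.1% were higher and 9.29% were lower by 0.5 or more, and 2.89% were higher and 1.38% were lower by 1 or more. The share of members past the threshold was therefore near that of all genes. The median difference of the 33 members was -0.011, against 0.0086 for all expressed genes. The interval excluded 0 for 26 of the 33 members (78.8%), against 67.3% of the 11138 expressed genes with estimated fragments. Counting intervals narrow as fragments rise, and these shares were not matched for level. With fragments from the shortest coding transcript, the interval excluded 0 for 22 members.

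**Figure D1:**
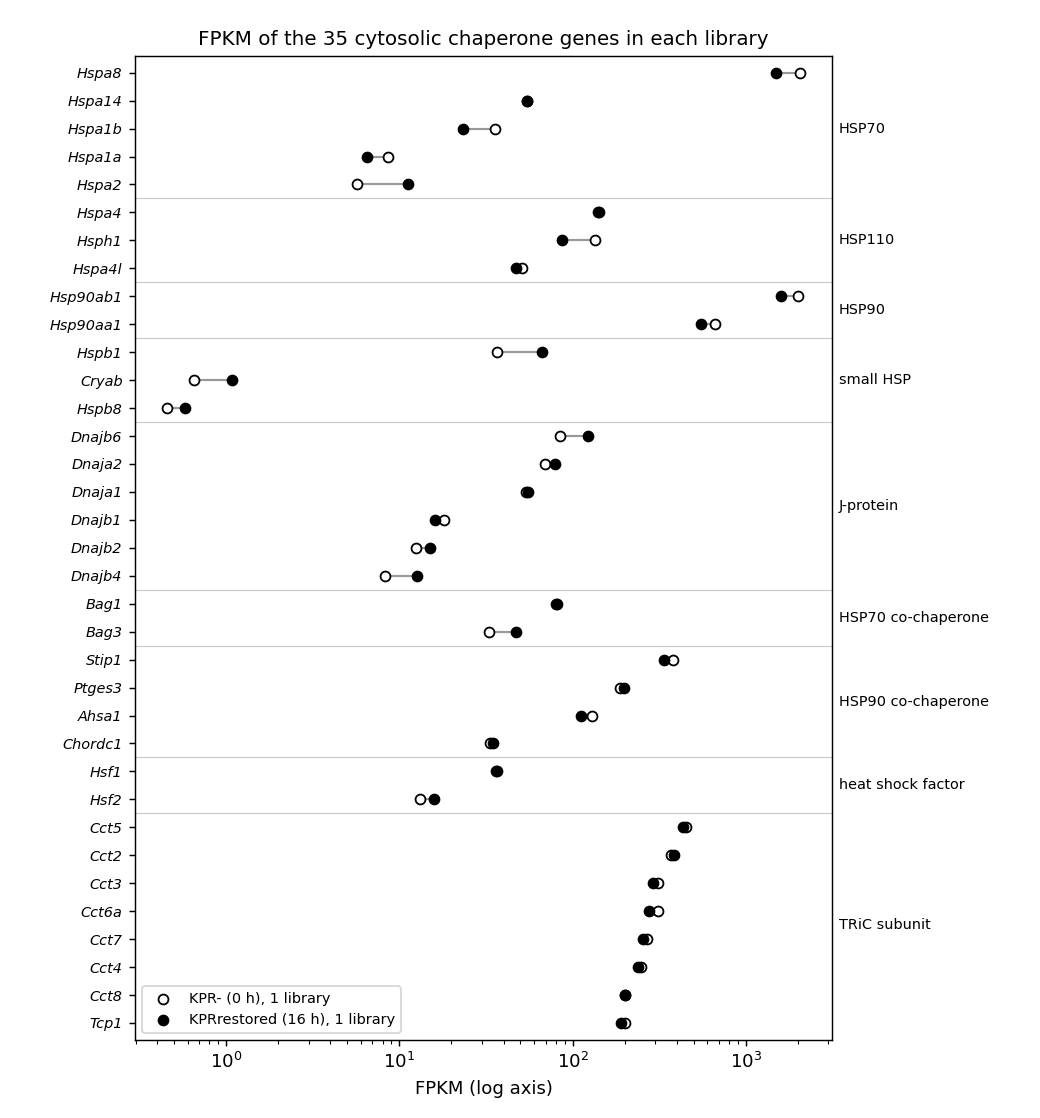
FPKM of the 35 members (log axis) in the KPR- library (open circles) and the KPRrestored library (filled circles), grouped by role, 1 library per condition and no error bars. *Hspa8* and *Hsp90ab1* lie above 1000 FPKM in both libraries, while *Cryab* and *Hspb8* lie near or under 1 FPKM.

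The RNA of the set lay in a few abundant genes. The summed FPKM of the 35 members was 8724 in KPR- and 7512 in KPRrestored, which was 1.67% and 1.43% of the FPKM of all genes. *Hspa8* and *Hsp90ab1* alone made up 46.7% of the summed level in KPR- and 41.1% in KPRrestored. These 2 genes also carried 81.5% of the drop of 1212 FPKM between the libraries, with 579 FPKM from *Hspa8* and 409 from *Hsp90ab1*. *Hsp90aa1* gave a further 115 FPKM, and the 8 TRiC subunits 103 FPKM together. The lower sum therefore came from 3 genes under the threshold more than from the 2 genes past it.

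*Hspa8* encodes HSC70, the constitutive cytosolic HSP70 that folds new proteins and uncoats clathrin vesicles. It lies at chr9:40800984-40810087 on the plus strand. Its level was 2068 FPKM in KPR- and 1489 FPKM in KPRrestored, which made it the gene of rank 14 and rank 47 in the libraries. The difference was -0.47 (95% counting interval -0.49 to -0.46), from about 98677 and 72981 fragments, just under the threshold in size. Among the 84 genes that averaged 1000 FPKM or more, its difference was the 4th from the lowest, whereas the median of these genes was 0.050. Reads of *Hspa8* may be shared, because 63.4% of the 100-base windows of its transcript also occur in transcripts of other annotated genes, and how the authors' counting split such reads is not given in the sources used here. None of these other genes is listed in the deposited values.

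*Hsp90ab1* (chr17:45567775-45573271, minus strand) encodes the constitutive HSP90β. Its level was 2009.5 FPKM in KPR- and 1601 FPKM in KPRrestored, at ranks 17 and 39. The difference was -0.33 (-0.34 to -0.32), the 7th from the lowest of the same 84 genes, and none of its windows is shared. *Hsp90aa1* (chr12:110690605-110702728, minus strand) encodes HSP90α, the more inducible form. It had 666 FPKM in KPR- and 551 FPKM in KPRrestored, a difference of -0.27 (-0.29 to -0.25), with 47.5% of its windows shared. Both HSP90 genes were thus lower by a similar amount, and the ratio of their levels was 3.02 in KPR- and 2.90 in KPRrestored.

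The remaining HSP70 genes went in both directions. *Hspa1a* (chr17:34969190-34972156) and *Hspa1b* (chr17:34956436-34959238) are neighbours on the minus strand that encode the classical inducible HSP70, and their coding sequences are 99.4% identical. *Hspa1b* had 35.5 FPKM in KPR- and 23.2 FPKM in KPRrestored, a difference of -0.61 (-0.71 to -0.51) from about 2012 and 1353 fragments. *Hspa1a* had 8.63 and 6.47 FPKM, a difference of -0.42 (-0.61 to -0.23) from about 520 and 400 fragments. The split between these copies is uncertain, since 56.5% of the *Hspa1a* windows and 49.9% of the *Hspa1b* windows also occur in other transcripts, mostly the other copy. Their sum, on which the split bears little because the transcripts are of similar length (2967 and 2803 bases), was 44.1 FPKM in KPR- and 29.7 FPKM in KPRrestored, a difference of -0.57 (-0.66 to -0.48). *Hspa8* was present at 58.3 times the level of *Hspa1b* in KPR- and at 64.1 times in KPRrestored.

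*Hspa2*, an HSP70 best known from spermatogenesis, had the highest difference of all 35 members. It lies at chr12:76404176-76406938 on the plus strand. Its level was 5.72 FPKM in KPR- and 11.2 FPKM in KPRrestored, a difference of 0.97 (0.77 to 1.18) from about 289 and 583 fragments. It shares no 100-base window with other transcripts, although its coding sequence is 78.1% identical to that of *Hspa1b* and 73.9% identical to that of *Hspa8*. It stayed a minor HSP70, with *Hspa8* at 362 times its level in KPR- and 133 times in KPRrestored. *Hspa14*, which works at the ribosome, had 54.3 and 54.2 FPKM, with an interval that held 0 (difference -0.0012). The 5 HSP70 genes together summed to 2172 FPKM in KPR- and 1584 FPKM in KPRrestored.

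The 3 HSP110 genes encode nucleotide exchange factors of HSP70, and *Hsph1* was the one that differed past the threshold. *Hsph1* (chr5:149614287-149636376, minus strand) encodes HSP105, the stress-inducible HSP110. Its level was 135 FPKM in KPR- and 86.7 FPKM in KPRrestored, which was the lowest difference of all members at -0.64 (-0.68 to -0.60), from about 10623 and 7001 fragments, with no shared windows. *Hspa4* (chr11:53259814-53300457, minus strand) had 140.4 and 143 FPKM, a difference of 0.027 with an interval that held 0 (-0.0071 to 0.061). *Hspa4l* (chr3:40744495-40796103, plus strand) had 50.9 and 47.3 FPKM, a difference of -0.11 (-0.15 to -0.067). *Hsph1* and *Hspa4* were thus at nearly the same level in KPR- (ratio 0.963), whereas in KPRrestored *Hsph1* was at 0.606 times the level of *Hspa4*.

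Of the 3 small heat shock proteins, which hold unfolded proteins without using ATP, *Hspb1* was higher in KPRrestored. *Cryab* and *Hspb8* were too low to measure well. *Hspb1* (chr5:135887919-135889563, plus strand) encodes the mouse HSP25, which also binds actin filaments. It had 36.7 FPKM in KPR- and 67.0 FPKM in KPRrestored, a difference of 0.87 (0.72 to 1.02) from about 553 and 1037 fragments, and 56.3% of its windows also occur in a pseudogene transcript. It was the only one of the 5 stress-inducible members with a positive difference. *Cryab*, encoding αB-crystallin, had 0.656 FPKM in KPR- and 1.08 FPKM in KPRrestored, from about 13 and 22 fragments. Its difference of 0.71 was past the threshold, but its interval of -0.33 to 1.83 held 0, and 15.03% of its windows are shared with the neighbouring *Hspb2*. *Hspb8*, which works with BAG3, had 0.455 and 0.581 FPKM from about 16 and 21 fragments, a difference of 0.35 (-0.65 to 1.39). A difference of these low genes was not detectable at this depth.

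J-proteins deliver clients to HSP70 and start its ATP hydrolysis. 5 of the 6 had a positive difference, and the median of the 6 was 0.23, against 0.0086 for all expressed genes. Over all genes, 48.8% of those between 1 and 100 FPKM and 51.1% of those at 100 FPKM or more were negative. *Dnajb4* (chr3:152178511-152210302, minus strand) had 8.24 FPKM in KPR- and 12.7 FPKM in KPRrestored, a difference of 0.62 (0.44 to 0.80) from about 406 and 641 fragments. *Dnajb6* (chr5:29735688-29818134, plus strand), which suppresses the aggregation of polyglutamine proteins, had 84.9 and 123 FPKM, a difference of 0.53 (0.48 to 0.59), with 36.3% of its windows shared. These genes were the J-proteins past the threshold. *Dnajb2* had 12.5 and 15.1 FPKM (difference 0.27), *Dnaja2* 69.7 and 79.5 FPKM (0.19) and *Dnaja1* 54.1 and 55.7 FPKM (0.041). The interval of *Dnaja1* held 0 (-0.0083 to 0.091). *Dnajb1*, which encodes HSP40 and is the stress-inducible J-protein, was the one with a negative difference. It had 18.2 FPKM in KPR- and 15.98 FPKM in KPRrestored, a difference of -0.19 (-0.31 to -0.065). Together the J-proteins summed to 248 FPKM in KPR- and 302 FPKM in KPRrestored, so their summed level per HSP70 was 0.114 and 0.191.

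Of the BAG proteins, which release nucleotide and client from HSP70, *Bag3* was higher in KPRrestored. *Bag3* (chr7:128523616-128546981, plus strand) links HSP70 to small heat shock proteins and to selective autophagy. Its level was 33.1 FPKM in KPR- and 47.3 FPKM in KPRrestored, a difference of 0.52 (0.43 to 0.61) from about 1702 and 2500 fragments, and its windows are not shared. It lay close to the threshold and was under it with the libraries scaled to the same upper quartile (0.496) or with the transcript length trend removed (0.44). *Bag1*, which links HSP70 to the proteasome, had 80.5 and 81.2 FPKM, a difference of 0.013 with an interval that held 0. The level of *Hspa8* was 62.5 times that of *Bag3* in KPR- and 31.4 times in KPRrestored.

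None of the 4 HSP90 co-chaperones was past the threshold. *Stip1*, encoding HOP, which joins HSP70 to HSP90, had 381 FPKM in KPR- and 338 FPKM in KPRrestored (difference -0.18). *Ahsa1*, encoding the activator of the HSP90 ATPase, had 129 and 111 FPKM (-0.21). *Ptges3*, encoding p23, had 187 and 197 FPKM (0.078), and *Chordc1*, encoding an HSP90-binding CHORD protein, had 33.3 and 34.5 FPKM (0.052). The abundant *Stip1* and *Ahsa1* were thus slightly lower, by less than both HSP90 genes. Of the heat shock factors, *Hsf1* had 36.5 and 36.4 FPKM, a difference of -0.0062 with an interval that held 0. *Hsf2*, a factor with roles in development, had 13.2 and 15.9 FPKM, a difference of 0.27 (0.12 to 0.41).

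**Figure D2:**
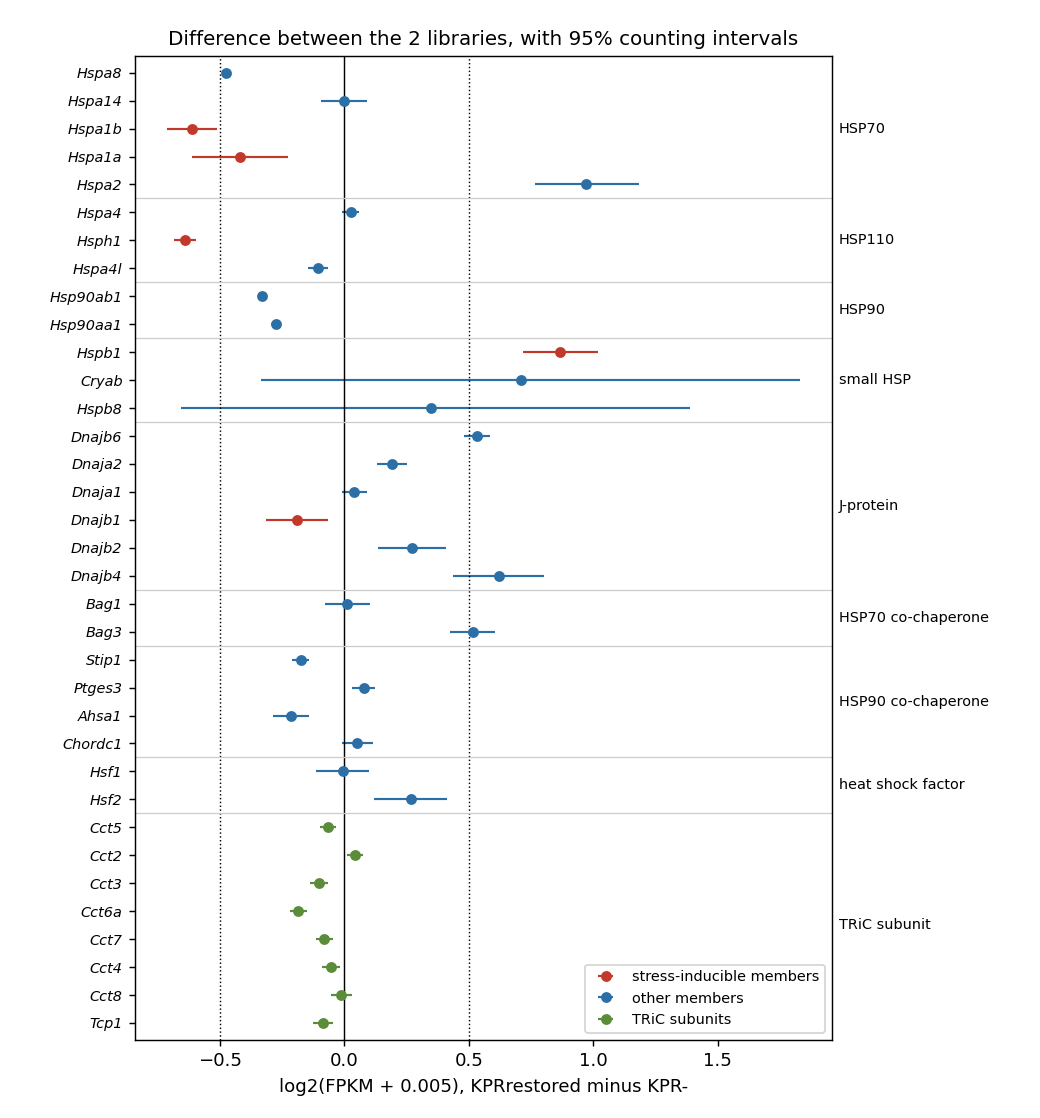
Difference of log2(FPKM + 0.005), KPRrestored minus KPR-, for each member (points) with its 95% counting interval (bars, counting error only), coloured by the stress-inducible members, the other members and TRiC. Dotted lines mark the threshold of 0.5 either way. *Hspa2* and *Hspb1* lie farthest to the right among members whose interval excludes 0, *Hsph1* and *Hspa1b* lie to the left of the threshold, and the TRiC subunits lie between -0.18 and 0.043.

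Of the 3 groups, the TRiC subunits had the narrowest range of differences. All 8 were under the threshold, with differences from -0.18 to 0.043, a median of -0.072 and 7 of 8 negative. *Cct5* had the highest level, with 451 FPKM in KPR- and 432 FPKM in KPRrestored. *Tcp1*, which encodes the subunit CCT1, had the lowest, with 201 and 189 FPKM. The order of the subunits was the same in both libraries (*Cct5*, *Cct2*, *Cct3*, *Cct6a*, *Cct7*, *Cct4*, *Cct8* and *Tcp1*), although neighbours in it such as *Cct3* and *Cct6a* (both 313 FPKM in KPR-) or *Cct8* and *Tcp1* (202 and 201) lay close together. The highest level was 2.25 times the lowest in KPR- and 2.28 times in KPRrestored, for subunits that occupy 1 place each in a ring.

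*Cct2* was the subunit with a positive difference, at 372 FPKM in KPR- and 384 FPKM in KPRrestored (0.043, interval 0.0095 to 0.076). *Cct8* had 202 and 201 FPKM, with an interval that held 0 (-0.052 to 0.030). *Cct4* had 248 and 239 FPKM (-0.052), *Cct7* 269.8 and 255 FPKM (-0.080), and *Cct3* 313 and 292 FPKM (-0.10). These 5 subunits lay between -0.10 and 0.043, as did *Cct5* (-0.064) and *Tcp1* (-0.084). *Cct6a* had the lowest difference, with 313 FPKM in KPR- and 276 FPKM in KPRrestored (-0.18, interval -0.22 to -0.15). It shares 14.99% of its windows with transcripts of *Psph*, which had 20.1 FPKM in KPR- and 96.7 FPKM in KPRrestored, and the effect of this overlap on *Cct6a* was not tested. *Tcp1* likewise shares 20.2% of its windows with *Acat2* and *Acat3*. TRiC summed to 2371 FPKM in KPR- and 2268 FPKM in KPRrestored, so its summed level was 1.09 times that of the HSP70 genes in KPR- and 1.43 times in KPRrestored.

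Set side by side, the 5 stress-inducible members had a median difference of -0.42, the 22 other members 0.047 and the 8 TRiC subunits -0.072. The median of the stress-inducible members was thus lower by 0.35 than that of TRiC and by 0.46 than that of the other members. It describes 5 genes that ranged from -0.64 (*Hsph1*) to 0.87 (*Hspb1*), a range that held all the TRiC subunits and all other members except *Hspa2*. Of the stress-inducible members, 1 was called higher and 2 lower. Of the other members, 5 were called higher and 0 lower, or 4 and 0 of the 20 expressed ones, since *Cryab*, whose interval held 0, was not expressed. These shares stand beside 12.1% higher and 9.29% lower over all expressed genes. The other members are not all constitutive, and *Hsp90aa1*, the more inducible HSP90 form, is among them. In 12 of the 22 other members that are constitutive in a narrower sense, 2 were called higher, 0 lower, and the median was 0.052. The members of each group are not replicates, and *Hspa1a* and *Hspa1b* share sequence, so the group medians were not tested.

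**Figure D3:**
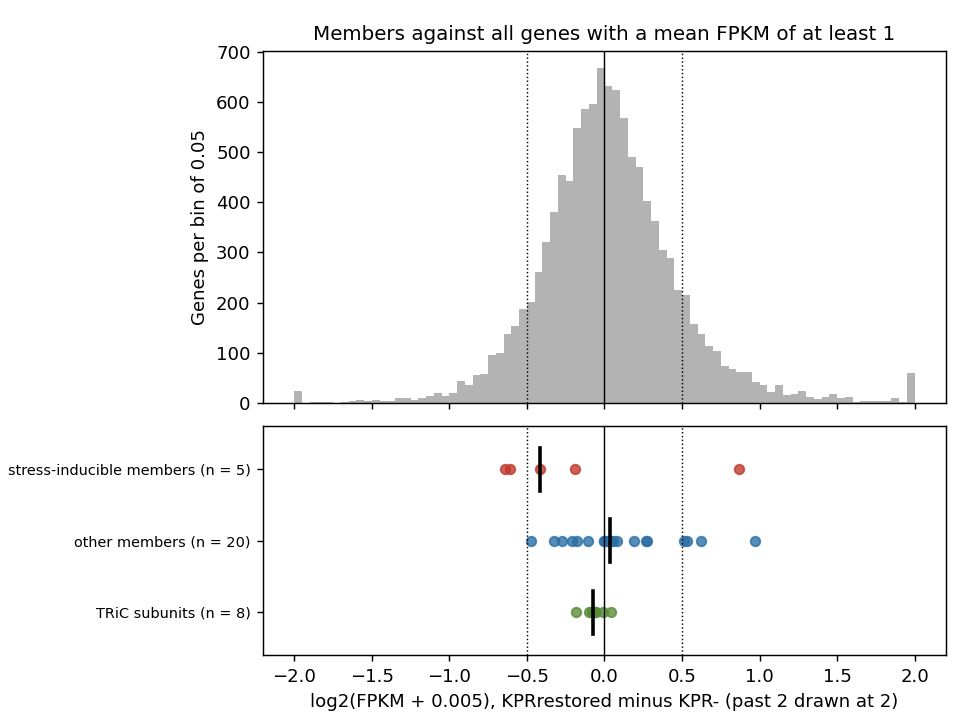
Upper panel, number of genes per bin of 0.05 over the 11231 expressed genes, by difference of log2(FPKM + 0.005), KPRrestored minus KPR-, with values past 2 in either direction drawn at 2. Lower panel, the expressed members in the 3 groups (points) with the group median (black line). 4 of 5 stress-inducible members lie left of 0 and *Hspb1* lies at 0.87, while all TRiC subunits lie near the peak of the histogram.

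Outside TRiC, members were also counted by level. Of the 9 members with a mean of at least 100 FPKM, 6 had a negative difference (*Hsph1*, *Hspa8*, *Hsp90aa1*, *Hsp90ab1*, *Stip1* and *Ahsa1*) and the median was -0.21. Of the 18 members under 100 FPKM, 12 had a positive difference and the median was 0.12. The intervals of *Cryab*, *Hspb8*, *Dnaja1*, *Bag1* and *Chordc1*, all among the 12, held 0. Those of *Hspa14* and *Hsf1*, among the negative ones, also held 0. Over all 835 genes with a mean of at least 100 FPKM, 51.1% were negative and the median was -0.0089, and over all genes between 1 and 100 FPKM 48.8% were negative and the median was 0.010. This split of the members rests on the level chosen. At 50 FPKM instead of 100, the 14 members at or above it had 7 positive and 7 negative differences and a median of 0.0058. The 13 members under it had 8 positive and 5 negative differences and a median of 0.27. Without *Cryab* and *Hspb8*, the 11 expressed members under 50 FPKM had a median of 0.052. HSP70, HSP110 and HSP90 chaperones themselves (10 genes) had a median of -0.30 and 8 negative differences, with *Hspa2* and *Hspa4* positive. The interval lay below 0 for 7 of the 8 and held 0 for *Hspa14*. Of the positive ones, it held 0 for *Hspa4* and lay above 0 for *Hspa2*. *Hspa1a* and *Hspa1b*, which share sequence, are both among the 8.

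Promoters are shown for the members with the highest and the lowest difference, *Hspa2* and *Hsph1*. They are also shown for *Hsph1*, *Dnajb6* and *Chordc1*, the searched members whose promoter holds an exact match to a full heat shock element. Elements with a mismatch or a gap were not searched, so a member without a match may still hold such an element. Each runs from 250 bases before to 50 bases after the transcription start, 5′ to 3′ on the strand of the gene, from RefSeq on GRCm38.p6. Capitals mark the heat shock element, the HSF1 motif of 3 units, in which a 2-unit element (GAANNTTC or TTCNNGAA) is followed at the same spacing by a further GAA or TTC. The windows are chr12:76404120-76404419 (plus strand) for *Hspa2*, chr5:149636287-149636586 (minus strand) for *Hsph1*, chr5:29735648-29735947 (plus strand) for *Dnajb6* and chr9:18292017-18292316 (plus strand) for *Chordc1*.
Hspa2: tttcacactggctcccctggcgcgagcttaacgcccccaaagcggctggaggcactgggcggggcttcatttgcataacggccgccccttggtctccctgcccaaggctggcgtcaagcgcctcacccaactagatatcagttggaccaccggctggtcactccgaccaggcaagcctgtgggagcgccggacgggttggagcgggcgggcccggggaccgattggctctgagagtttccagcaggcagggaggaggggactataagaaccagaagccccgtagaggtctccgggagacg
Hsph1: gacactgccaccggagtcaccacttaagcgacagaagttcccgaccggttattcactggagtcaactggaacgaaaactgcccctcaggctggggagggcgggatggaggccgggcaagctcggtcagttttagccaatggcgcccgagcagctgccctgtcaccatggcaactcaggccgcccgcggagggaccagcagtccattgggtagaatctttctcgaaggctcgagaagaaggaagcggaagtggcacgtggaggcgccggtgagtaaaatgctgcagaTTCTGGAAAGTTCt
Dnajb6: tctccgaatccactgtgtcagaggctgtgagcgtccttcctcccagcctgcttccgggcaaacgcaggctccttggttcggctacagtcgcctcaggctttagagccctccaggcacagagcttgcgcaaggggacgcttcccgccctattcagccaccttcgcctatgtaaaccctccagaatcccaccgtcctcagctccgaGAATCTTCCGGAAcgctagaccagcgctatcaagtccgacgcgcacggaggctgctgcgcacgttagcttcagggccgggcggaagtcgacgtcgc
Chordc1: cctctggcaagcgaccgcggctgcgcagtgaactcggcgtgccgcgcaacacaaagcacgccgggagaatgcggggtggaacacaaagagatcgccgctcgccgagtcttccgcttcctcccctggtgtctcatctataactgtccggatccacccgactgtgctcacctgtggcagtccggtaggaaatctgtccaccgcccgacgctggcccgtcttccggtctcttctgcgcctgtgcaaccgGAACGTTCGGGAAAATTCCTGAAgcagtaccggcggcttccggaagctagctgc
In *Hsph1* the element TTCTGGAAAGTTC begins at base 37, counted with the start as base 1, in *Dnajb6* GAATCTTCCGGAA begins 46 bases before the start, and in *Chordc1* 3 overlapping matches begin with GAACGTTCGGGAA 4 bases before it. *Hspa2* held no heat shock element in this window and a CCAAT box (read on the other strand) 29 bases before the start.

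These 3 genes had differences of -0.64 (*Hsph1*, called lower), 0.53 (*Dnajb6*, called higher) and 0.052 (*Chordc1*, under the threshold). A link between the element and the direction of the difference was not tested. In all, 29 of the 35 members matched 38 promoters of the RefSeq table, and *Cct4*, *Hspa8*, *Hsp90aa1*, *Hsp90ab1*, *Cryab* and *Hsf1* were not matched. The 3-unit element, on either strand, was in 5 of the 38 member promoters (13.2%), some of them overlapping starts of the same gene, and in 0.603% of all 32851 promoters. Elements of 2 units, searched as above on both strands, are contained in every 3-unit element. They were in 15 member promoters (39.5%), of 13 genes, and in 15.1% of all promoters. By group, they were in 5 of 7 promoters of the stress-inducible members (71.4%), of 4 of the 5 genes. Among the other members they were in 7 of 22 promoters (31.8%), and among TRiC subunits in 3 of 9 (33.3%). The groups hold few promoters, and this contrast was not tested. The RUNX motif (TGTGGT or TGCGGT, both strands) was in 5 member promoters (13.2%) and in 22.4% of all promoters. It was in 3 of 9 promoters of TRiC subunits (33.3%), 2 of 22 promoters of the other members and 0 of 7 promoters of the stress-inducible members. CCAAT boxes (CCAAT, both strands) were in 39.5% of member promoters and 37.4% of all promoters. A match describes letters in the window and says nothing about binding, and binding was not measured.

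Other genes of chaperone pathways, from lists apart from the 35 members, were counted where expressed. Their counts are to be read beside the 12.1% of all expressed genes that were higher and the 9.29% that were lower. Of 9 prefoldin and phosducin-like genes, which bring clients to TRiC or regulate it, 1 was higher and 0 were lower, with a median of 0.12. *Txndc9* had the highest difference, from 11.6 FPKM in KPR- to 18.7 FPKM in KPRrestored (0.68), and *Pfdn1* the lowest, from 76.3 to 64.2 FPKM (-0.25). Of 22 further HSP90 co-chaperones, 2 were higher and 2 were lower, with a median of -0.038. Their extremes were *Fnip2*, with 6.50 and 9.77 FPKM (0.59), and *Fkbp5*, which tunes the glucocorticoid receptor, with 32.7 and 21.3 FPKM (-0.62). Of 15 further HSP70 genes and partners, 2 were higher and 1 was lower, with a median of 0.015. *Dnaja4* had 1.504 and 2.22 FPKM (0.56), and *Bag2* had 27.02 and 18.3 FPKM (-0.56). The expressed J-proteins of this list went both ways, from -0.38 to 0.56. These lists thus spread around 0 as the members did.

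Of 6 further small heat shock proteins, *Hspb6* was the one that was expressed, at 11.5 FPKM in KPR- and 13.4 FPKM in KPRrestored (0.22). Its interval held 0 (-0.0088 to 0.45). Of the further heat shock factors and their binding protein, *Hsf4* had 2.34 and 3.91 FPKM (0.74) and *Hsbp1*, which binds HSF1, had 41.9 and 54.3 FPKM (0.38). The 7 relatives of the members in the endoplasmic reticulum and mitochondria had a median of -0.41, with 2 lower and 0 higher (9.29% and 12.1% over all expressed genes). *Hsp90b1*, the HSP90 of the endoplasmic reticulum, had 625 FPKM in KPR- and 340.1 FPKM in KPRrestored (-0.88), and *Hspa9*, the mitochondrial HSP70, had 236 and 294 FPKM (0.32). The cytosolic HSP90 genes were lower by less than *Hsp90b1*. They were lower by more than *Trap1*, the mitochondrial HSP90, which had 50.1 and 46.3 FPKM (-0.11).

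**Figure D4:**
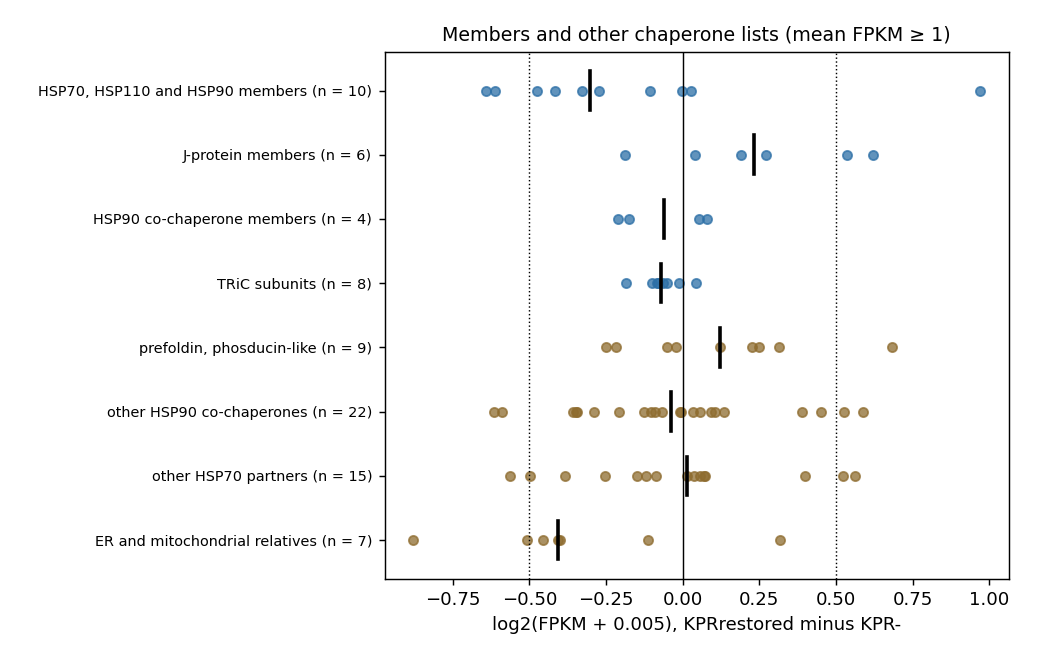
Difference of log2(FPKM + 0.005), KPRrestored minus KPR-, of members by role (blue) and of other chaperone lists (brown), for expressed genes, with the median of each list (black line) and the threshold of 0.5 either way (dotted). The HSP70, HSP110 and HSP90 members have a median of -0.30, the J-proteins 0.23, TRiC -0.072 and the relatives in the endoplasmic reticulum and mitochondria -0.41.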

How the data were processed

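Poly(A) RNA of 1 KPR- library (0 h) and 1 KPRrestored library (16 h) was sequenced as directional paired-end reads of 100 bases. The authors trimmed the reads, mapped them using TopHat (mm10 in the submitters' processing notes) and deposited FPKM values per gene that they estimated using Cufflinks; versions, annotation, the strand setting and the treatment of reads that map to several places are not given in the sources used here.

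Groups were taken from the sample labels. Differences were computed as log2(FPKM + 0.005), KPRrestored minus KPR-, with a threshold of 0.5. Genes whose FPKM averaged 1 or more (expressed genes) served as background. Depth was estimated from the steps of low FPKM values with GENCODE M21 transcript lengths, with 578 (KPR-) and 595 (KPRrestored) low genes of a single transcript length, of which 78.2% and 80.3% lay within 0.1 of a whole number of fragments. Fragments per gene were then estimated, and 95% Clopper-Pearson limits of their ratio were computed. The depth estimate and the limits were tested on simulated data with a single known transcript length per gene and no shared reads. That test therefore does not cover the choice of transcript or reads shared between genes. Shared windows were all 100-base windows of the longest transcript that also occur in a transcript of another gene. Protein sequences were not used here, and coding identity came from aligned GENCODE coding sequences, for TRiC with 7 of 8 subunits. Of the 23183 symbols, 22148 matched GENCODE directly and 649 through a synonym.

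The members, the lists, the threshold and the alternatives were chosen with earlier results of these data known. All members are named, and in each further list the genes with the highest and the lowest difference among expressed genes. Genes that overlap members, and *Trap1*, were named after their values were seen. Promoters printed were those of the members with the highest and lowest difference and up to 3 with a 3-unit heat shock element. Alternatives were pseudocounts of 0.1 and 1, scaling to the same total, to the same upper quartile or to the median gene, removal of the transcript length trend, a threshold of 1, a shorter transcript and a narrower constitutive list. Scripts ran in Python 3.11.15 with Biopython 1.88, scipy 1.17.1, pandas 2.3.3, numpy 2.4.6 and matplotlib 3.10.9.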

Additional observations from a re-analysis of the deposited data

How the results depend on the processing

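No paired analysis was possible because there was 1 library per condition, and leaving out a library was not possible for the same reason. No member changed direction past the threshold under any alternative. Pseudocounts of 0.1 and 1, scaling to the same total, centring on the median gene and scaling to the same upper quartile changed the call of 2 members, *Cryab* (lost with a pseudocount of 1) and *Bag3* (lost with the same upper quartile, where *Bag1*, near 0, changed sign). With the transcript length trend removed, *Hspa8* was past the threshold (-0.53), so the other members had 1 called lower instead of 0, *Bag3* was under it (0.44), the median of the other members was 0.12 and that of TRiC was -0.13, and 4 members under the threshold changed sign (*Cct2*, *Hspa4l*, *Bag1* and *Ptges3*). The cause was not tested. With a threshold of 1, the counts of members called higher and lower were 0 and 0, also among the stress-inducible members (0 and 0) and the other members (0 higher), which follows from the stricter threshold. With the narrower list of constitutive members, 2 were called higher instead of 5, since 10 genes were left out. With the shortest coding transcript, which gives fewer fragments, the interval excluded 0 for 22 instead of 26 members, without *Tcp1*, *Cct2*, *Hspa4l* and *Dnajb2*. Depth limits *Cryab* and *Hspb8*, with 13 to 22 fragments. The lack of replicates limits every difference.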
